A study of Mus musculus with 12 samples.

Results

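The contraction response of gastrocnemius muscle, a calf muscle of mixed but mainly fast fibres, was examined in 3 mice labelled as over-expressing c-myc (Myc). Each mouse gave an uncontracted left leg and a contracted right leg, so the comparison rests on 6 of the 12 libraries of the series, 3 contracted against 3 uncontracted. The other 6 libraries came in the same way from 3 mice labelled control. All animals were C57BL/6J females aged 11 weeks, and groups were read from the sample titles. Leg side and contraction cannot be told apart, because each contracted leg was a right leg. How Myc was over-expressed, in which cells, how contraction was evoked and how long afterwards the muscle was taken are not given in the sources used here. Nothing else in the labels distinguishes the groups.

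Contracting muscle fibres release calcium from internal stores, consume energy and come under mechanical strain, and within hours they transcribe a first wave of immediate early transcription factors followed by genes for stress protection, energy supply and repair of the contractile apparatus. MYC is itself an immediate early transcription factor that pairs with MAX on DNA and is best known for raising ribosome production and cell growth. The comparison asks which genes differ between contracted and uncontracted legs when the animals carry the Myc label, and how far the 3 animals do so alike.

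Libraries were made with a 3' messenger RNA kit, which counts one read near the 3' end per captured transcript fragment, and levels are given as counts per 1000000 reads of the library total (CPM). The 6 libraries held 1371732 to 1643216 reads, 1 read was worth 0.609 to 0.729 CPM, and 6676 genes passed the filter on low counts and were tested. Mitochondrial genes took 27.5 to 35.2% of the reads of these libraries. The 12 defining skeletal muscle markers summed to 134300 to 147500 CPM in uncontracted and 129800 to 151500 CPM in contracted legs, so muscle RNA dominated each library alike.

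Myc reads checked the labels and did not follow them in 2 of the 3 contracted libraries. The uncontracted legs labelled Myc held 11, 9 and 9 Myc reads (6.99, 5.94 and 6.56 CPM) in animals 1, 2 and 3. Their contracted legs held 32, 0 and 2 reads, that is 22.3 CPM (95% exact Poisson interval 15.3 to 31.6), 0 CPM (up to 2.24) and 1.26 CPM (0.152 to 4.54). The library labelled contracted Myc 1 was thus above all 3 uncontracted legs, and the libraries labelled contracted Myc 2 and 3 were below all of them. The groups overlapped, with means of 7.87 ± 12.6 and 6.50 ± 0.524 CPM (SD, n = 3), and a 2-sided exact permutation test gave p = 1.0 where the smallest possible p is 0.1. The fitted log2 change of Myc was 0.17 ± 0.98 (SE; edgeR adjusted p = 0.964), and it was 1.76 without the libraries labelled contracted Myc 2 and 3 but -3.26 without contracted Myc 1. Libraries labelled control held 0, 1 and 0 reads in uncontracted and 1, 10 and 59 in contracted legs. Contracted controls 2 and 3 thus held more Myc reads than the libraries labelled contracted Myc 2 and 3. MYC is an immediate early factor, so a control label does not fix how many Myc reads a contracted leg holds. In legs labelled control the fitted log2 change of Myc was 5.72 ± 1.6 (SE; edgeR adjusted p = 0.0594), not called. The source of these reads was not tested. Whether the 4 contracted libraries numbered 2 and 3 carry each other's genotype labels was not tested. If they do, the changes within animals 2 and 3 and the comparison of legs labelled Myc with legs labelled control join legs of different animals. A transgene without the endogenous 3' end would not be counted, and intervals here and below cover counting error only. Results follow the labels, and those that the text leads with are also given without the libraries labelled contracted Myc 2 and 3.

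Contraction raised many more genes than it lowered in legs labelled Myc. Of 6676 genes, 260 passed edgeR's quasi-likelihood test at an adjusted p under 0.05 (3.89%), with 230 higher (3.45%) and 30 lower (0.449%) in contracted legs. The median log2 change of the higher genes was 1.51, and 180 of them changed by more than 2-fold, 74 by more than 4-fold and 35 by more than 8-fold. The lower genes had a median of -0.84, and 10 of the 30 changed by more than 2-fold. Reads of the 230 higher genes made up 1.28, 1.23 and 1.11% of the library in uncontracted legs 1, 2 and 3 and 2.31, 4.22 and 3.95% in contracted legs. The genes were called on these same legs, so a higher share in contracted legs follows from their choice and is a description. Animal 1 had the smallest step. Without the libraries labelled contracted Myc 2 and 3, 46 genes passed, 44 higher and 2 lower, in a fit where the lone contracted leg is assumed to vary like the other groups. Of the 230 higher genes 228 kept their direction there and 41 their call, and of the 30 lower genes 30 kept their direction and 2 their call. Calls were spread over abundance, from 2.24% of 2008 genes under 10 CPM and 3.70% of 3267 genes at 10 to 50 CPM to 6.68% of 1033 genes at 50 to 200 CPM and 6.79% of 368 genes above that.

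**Figure D1:**
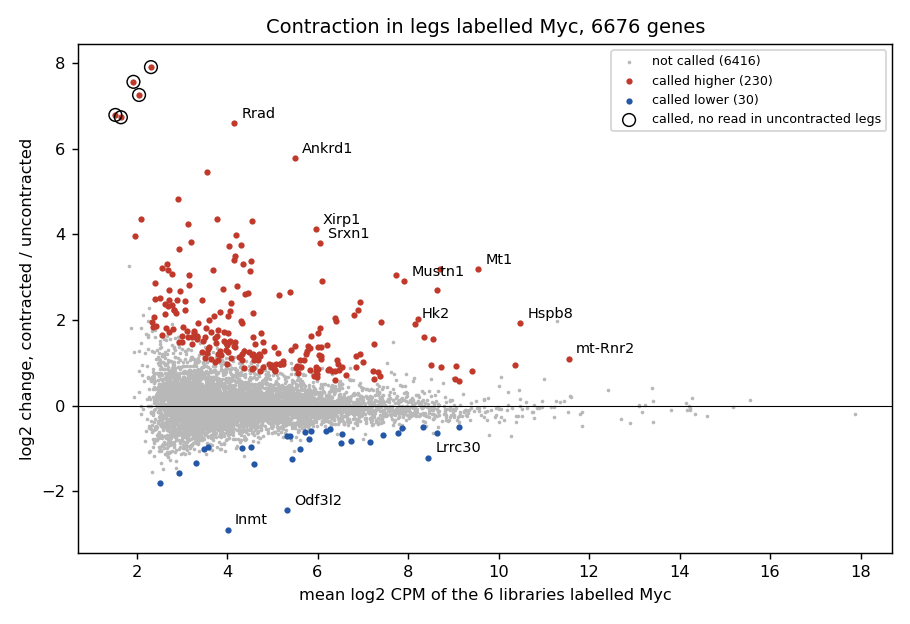
Log2 change of contracted against uncontracted legs labelled Myc (vertical) against the mean log2 CPM of the 6 libraries (horizontal) for 6676 genes, with 230 genes called higher in red and 30 called lower in blue. Rrad and Ankrd1 lie highest among genes with reads in uncontracted legs, and Inmt lies lowest; for the 5 circled genes, which had no read there, the fitted change depends on the prior count and is no measure of size.

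Called genes mostly moved in the same direction in the 3 animals, but not by the same amount. Log2 changes were read within each animal as the contracted minus the uncontracted leg, with no test. The sign was the same in all 3 animals for 223 of the 230 higher genes and for 30 of the 30 lower genes, whereas 1173 (17.6%) of all tested genes went up in all 3 animals and 1153 (17.3%) went down. Because the call used these values, the agreement is a description. The median change of the higher genes was 0.90 in animal 1, 1.62 in animal 2 and 1.62 in animal 3, and of the lower genes -0.53, -0.98 and -0.92. Contracted leg 1 was the lowest of the 3 contracted legs in 211 of the 230 higher genes (91.7%), and in 1775 (54.0%) of the 3284 tested genes whose fitted change was above 0. Across all 6676 genes the changes of animals 2 and 3 correlated at 0.595 (Pearson's r) and those of animal 1 with them at 0.247 and 0.230. Over the 1401 genes above 50 CPM, where reads limit the values less, r was 0.858, 0.552 and 0.554. Genes are not independent replicates, and animals 2 and 3 are those whose contracted libraries hold 0 and 2 Myc reads. Leaving out contracted leg 1 raised the number of calls from 260 to 517 with the Myc label and from 187 to 313 with the control label. Contracted control 1 held 1 Myc read, against 10 and 59 in contracted controls 2 and 3. Whether the order of the legs goes with Myc reads or with the replicate number was not tested. On the first principal component, which held 48.6% of the variance of the 6 libraries, uncontracted legs lay at -14.1, -20.3 and -24.7 and contracted legs at 2.33, 30.7 and 26.1.

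Genes of mechanical stress and the sarcomere were among those called with large changes. Of 26 measured genes of this list 11 were higher, 1 was lower and 14 did not pass, with a median log2 change of 0.50 against -0.01 over all genes. The share called was 46.15%, against 3.89% of all tested genes, which is the share to set beside each list below. Ankrd1 (chr19:36111961-36120099 in GRCm38, the mm10 build, minus strand) encodes a stretch-responsive repeat protein that binds titin in the sarcomere. It measured 6.35, 6.60 and 4.37 CPM in uncontracted legs 1, 2 and 3 and 163, 484 and 334 CPM in the contracted legs. The groups lay far apart, and even contracted leg 1, the lowest, held more than any uncontracted leg, giving a log2 change of 5.77 ± 0.41 (SE; adjusted p = 1.3e-08), or 54.7-fold. Xirp1 (chr9:120013755-120023598), whose protein binds actin at sites of fibre damage, went from 14.0, 19.1 and 11.7 CPM to 139.7, 330.4 and 324 CPM. Contracted legs 2 and 3 were nearly equal and leg 1 lower, and the log2 change was 4.11 ± 0.32 (SE; adjusted p = 3.76e-08). Mustn1 (chr14:30879200-30881610), a small nuclear protein of muscle and tendon, had the smallest p of all genes. Its levels were 74.9, 96.4 and 95.5 CPM without and 453, 759 and 823 CPM with contraction, a change of 2.90 ± 0.18 (SE; adjusted p = 3.53e-09). Hbegf, a growth factor released from the cell surface, rose by 2.65 ± 0.24 from 15.2, 16.5 and 16.8 to 71.2, 119 and 119 CPM. Legs of both groups were separate for all 4 genes, as they were for 1237 (18.5%) of all tested genes. The 4 genes were named by these same values, so their separation is a description. Without the libraries labelled contracted Myc 2 and 3 the changes were 4.78, 3.21, 2.34 and 2.13.

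The further members that rose in this list were named after their values were seen. Klhl40, a kelch protein that stabilizes thin filament proteins, was the most abundant of them, at 164, 153 and 167 CPM without and 576, 1416 and 1232 CPM with contraction. Its change was 2.70 ± 0.25 (SE; adjusted p = 2.83e-07). Flnc, the muscle filamin that crosslinks actin at the Z-disc, rose by 2.42 ± 0.23 (adjusted p = 5.98e-07), and both stayed called without the libraries labelled contracted Myc 2 and 3 (1.83 and 1.66). Cavin4, Lmcd1 and Nrap rose by 1.20, 1.17 and 0.94, but did not pass without those libraries (adjusted p of 0.418, 0.0853 and 0.732). Abra and Csrp3, at 1.08 and 0.80, were also lost when single libraries of the 6 were left out, among them either contracted leg 2 or contracted leg 3, and did not pass without both (0.38 and 0.57). With the animal as a block Csrp3 had an adjusted p of 0.0525. Synpo, an actin-associated protein gene, was the member that fell, by 0.52 on the log2 scale from 283, 314 and 241 to 187, 194 and 214 CPM (adjusted p = 0.0238). It did not pass without contracted leg 2 or 3 or uncontracted leg 1 or 2, nor without both of these contracted legs (-0.58).

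**Figure D2:**
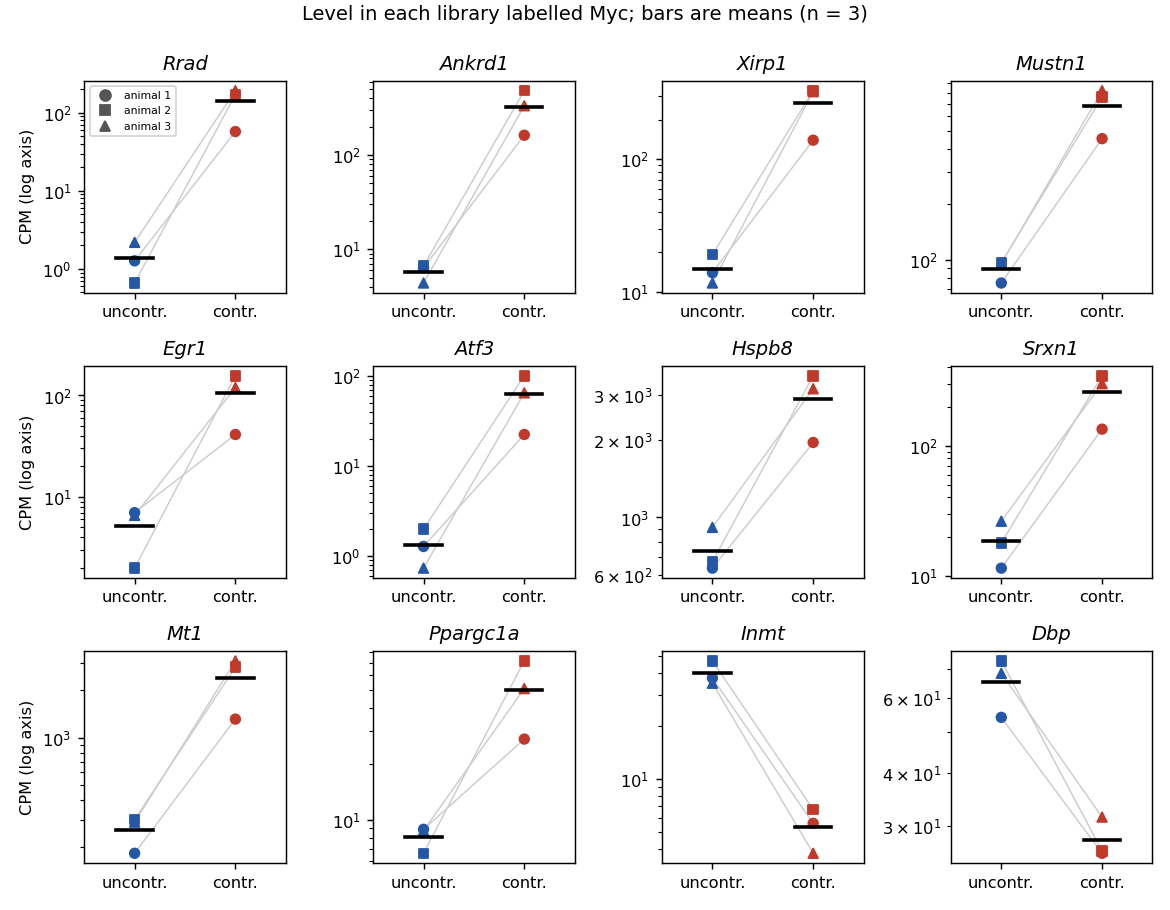
CPM (log axes) of 12 genes in the 6 libraries labelled Myc, with the legs of 1 animal joined by a line, animals marked by shape and group means (n = 3) as bars. The genes shown were all called on these values. In each the 3 contracted legs lie apart from the 3 uncontracted legs, and in the 10 genes that rose contracted leg 1 (circle) is the lowest contracted leg.

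Many immediate early transcription factors rose. Of 26 measured members 14 were higher (53.85% called), none was lower and 12 did not pass. The median log2 change of the list was 1.24, with 0.56, 1.56 and 1.75 in animals 1, 2 and 3. Egr1, a zinc finger factor induced by growth signals, went from 6.99, 1.98 and 6.56 CPM to 41.2, 156 and 119.5 CPM, a change of 4.32 ± 0.43 (SE; adjusted p = 9.4e-07). Atf3 (chr1:191170296-191218039), a stress-induced partner of AP-1 proteins, had 1.27, 1.98 and 0.729 CPM without and 22.4, 100.4 and 64.8 CPM with contraction. Its contracted legs spread over a wide range but did not reach down to the uncontracted ones, and the change was 5.45 ± 0.66 (SE; adjusted p = 1.03e-05). Nr4a3 (chr4:48045153-48086447), an orphan nuclear receptor, rose by 4.34 ± 0.52 (SE; adjusted p = 9.79e-06) from 1.91, 3.30 and 2.92 to 17.5, 88.8 and 63.5 CPM. Klf6, a Krüppel-like factor, rose by 3.31 ± 0.36 and the AP-1 subunit gene Junb by 3.82 ± 0.57. Fos, the AP-1 subunit gene best known as an early marker of activity, had no read in the 3 uncontracted legs and 11.9, 30.4 and 16.4 CPM in the contracted legs. Its 93 contracted reads were at least 29.6-fold more, against a limit of 3 reads pooled over the group. Csrnp1, a nuclear factor gene, had 51 reads against 2, all 2 in uncontracted leg 2, a ratio of 24.4 (6.41 to 207), and without that leg its uncontracted legs held none. Jund, an AP-1 subunit that resting cells already express, had the highest level among the members named here, at 95.9, 95.8 and 86.0 CPM without and 174, 304 and 292 CPM with contraction, and rose by 1.45 ± 0.17.

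Without the libraries labelled contracted Myc 2 and 3, 6 members of the immediate early list passed and its median was 0.61. Egr1 (2.97), Atf3 (3.97), Nr4a3 (2.66), Klf6 (2.46), Jund (0.90) and Fos were the 6. Junb, at 2.23, was among those that did not (adjusted p = 0.324), and so was Csrnp1 (adjusted p = 0.0513). Fosl2 and Cebpb, with log2 changes of 0.98 and 0.90, lost their call with the animal as a block (adjusted p of 0.0601 and 0.0505) and when any of 5 single libraries of the 6 was left out.

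Of 16 measured feedback inhibitors of signalling and mRNA decay factors 8 were higher, none was lower and 8 did not pass (median 1.0). Rrad (chr8:104628070-104631327), a small GTPase that restrains calcium channels, had the largest fitted change among genes with reads in every library. Levels were 1.27, 0.660 and 2.19 CPM in uncontracted and 57.3, 170.4 and 191 CPM in contracted legs, which is 6 reads in all against 666. No leg of one group came near the other, and the change was 6.59 ± 0.50 (SE; adjusted p = 2.68e-08), or 5.32 without the libraries labelled contracted Myc 2 and 3. Socs3, which blocks signalling from cytokine receptors, rose from 1.91, 1.32 and 1.46 CPM to 10.5, 47.5 and 35.8 CPM, by 4.24 ± 0.58 (SE; adjusted p = 5.17e-05). Btg2, which promotes mRNA deadenylation, rose by 3.13 ± 0.34, and Trib1, a pseudokinase that directs proteins to degradation, by 1.62 ± 0.22. Without those 2 libraries Rrad and Btg2 (2.17) remained called, while Socs3 (2.67, adjusted p = 0.0834) and Trib1 (0.92, adjusted p = 0.0685) did not. Sphk1, in none of the lists, encodes the kinase that makes sphingosine 1-phosphate. It had no read in uncontracted and 59 reads in contracted legs (9.08, 12.2 and 16.4 CPM), at least 18.8-fold more, and each of the 3 contracted legs held some.

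Of 18 measured genes that protect against oxidants and metals 7 were higher, none was lower and 11 did not pass (38.89% called, median 0.37). Srxn1 (chr2:152105516-152111376, plus strand) encodes sulfiredoxin, which repairs over-oxidized peroxiredoxins. It measured 11.4, 17.8 and 26.2 CPM without and 134, 345 and 299.9 CPM with contraction, a change of 3.80 ± 0.30 (SE; adjusted p = 4.79e-08). The metallothioneins Mt1 and Mt2, small proteins that bind zinc and copper, lie side by side on chromosome 8 (chr8:94179082-94180327 and chr8:94172664-94173568). Mt1 went from 184, 301 and 289 CPM to 1312, 2809 and 3079 CPM and Mt2 from 87.6, 154 and 187 CPM to 796, 1558 and 1663 CPM. Their changes of 3.18 ± 0.31 and 3.19 ± 0.32 were equal within their errors, and in both genes contracted leg 1 was the lowest contracted leg, well above the uncontracted legs. Txnrd1, a thioredoxin reductase gene, rose by 1.76 ± 0.29. Without the libraries labelled contracted Myc 2 and 3 the changes were 2.86, 2.34 and 2.46, all called, and 1.20 for Txnrd1, which was not (adjusted p = 0.41).

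Of 36 measured heat shock proteins and chaperones 10 were higher, none was lower and 26 did not pass (27.78% called, median 0.20). The small heat shock protein genes led by p. Hspb8 (chr5:116408491-116422864), whose protein works with BAG3 in the removal of damaged filament proteins, was among the most abundant genes that rose, at 635, 673 and 915 CPM without and 1958, 3559 and 3167 CPM with contraction. Its groups were separate and the change was 1.93 ± 0.21 (SE; adjusted p = 2.5e-06). Hspb7 stood out by its even response, with 218, 219 and 221 CPM in uncontracted and 664, 601 and 712 CPM in contracted legs. It rose by 1.55 ± 0.16 (SE; adjusted p = 1.5e-06), and contracted leg 1 was not its lowest contracted leg. Hspb1 (chr5:135887919-135889563) rose by 1.97 ± 0.23 from 40.0, 57.5 and 32.1 to 115, 209 and 190.5 CPM. Hspa1a and Hspa1b, inducible HSP70 genes, rose by 3.98 ± 0.48 and 4.82 ± 0.66, and how their reads divide between these near-identical copies is uncertain. All 5 kept their call without the libraries labelled contracted Myc 2 and 3, at 1.38, 1.59, 1.41, 2.83 and 3.77.

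Promoter sequences are shown for genes of these protective groups, because Mt1 with Mt2 and several small heat shock genes were called higher. They are the RefSeq windows of GRCm38.p6 from 250 bases before to 50 bases after the gene start, read on the gene's strand. In Hspb1 the capitals mark GAANNTTC, the core of the heat shock factor element, and in Mt1 and Mt2 they mark TGCNCNC on either strand, the core of the metal response element.
Hspb1: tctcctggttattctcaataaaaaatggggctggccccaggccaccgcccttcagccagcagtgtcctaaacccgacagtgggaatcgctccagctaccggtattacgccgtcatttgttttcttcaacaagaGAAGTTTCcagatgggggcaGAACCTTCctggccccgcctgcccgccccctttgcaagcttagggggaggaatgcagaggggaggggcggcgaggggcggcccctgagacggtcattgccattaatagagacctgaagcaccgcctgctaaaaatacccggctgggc
Mt1: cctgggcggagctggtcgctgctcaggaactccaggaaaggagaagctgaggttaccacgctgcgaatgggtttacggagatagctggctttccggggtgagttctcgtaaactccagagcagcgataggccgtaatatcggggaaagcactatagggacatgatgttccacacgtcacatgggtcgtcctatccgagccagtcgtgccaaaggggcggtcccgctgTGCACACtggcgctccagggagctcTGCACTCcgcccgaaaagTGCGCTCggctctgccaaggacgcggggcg
Mt2: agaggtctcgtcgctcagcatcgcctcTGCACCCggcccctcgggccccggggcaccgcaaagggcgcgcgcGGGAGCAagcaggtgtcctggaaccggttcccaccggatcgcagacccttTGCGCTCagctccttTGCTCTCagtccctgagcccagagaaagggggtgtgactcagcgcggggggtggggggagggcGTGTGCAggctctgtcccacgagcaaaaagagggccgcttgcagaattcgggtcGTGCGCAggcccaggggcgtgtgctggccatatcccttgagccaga
The windows are chr5:135887669-135887968, chr8:94178839-94179138 and chr8:94172368-94172667, all on the plus strand. The Hspb1 window held 2 copies of GAANNTTC, 117 and 97 bases before the start, and 0.355% of the 27025 promoters in the table held at least 2. The Mt2 window held 6 copies of TGCNCNC (0.207% of promoters held at least 6) and the Mt1 window 3 (6.95% held at least 3). Among the other called heat shock genes with a listed promoter, Hspb8, Hspa1a, Hspa1b and Bag3 held 1 copy of GAANNTTC each, and Hspb7, Dnajb1 and Dnajb4 held none. Over all genes GAANNTTC was in 13 of 169 listed promoters of genes called higher (7.69%), in 5.47% of those of tested genes and in 7.95% of all promoters. The other orientation, TTCNNGAA, was in none of these heat shock promoters, in 6.51% of the promoters of genes called higher and in 6.51% of those of tested genes. TGCNCNC was in 58.6% and 60.5% of them. The windows of Fos, Ankrd1 and Per1 were read too and are not printed. That of Ankrd1 held 1 copy of GAANNTTC, and those of Fos and Per1 held none. A match describes letters and is not evidence of binding.

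The AP-1 motif TGAGTCA, counted on either strand, was found in 16 of the 169 listed promoters of genes called higher (9.47%), in 181 of 5285 promoters of all tested genes (3.42%) and in 5.17% of all promoters. No test was made of these shares. The sites of genes with a log2 change above 2 are printed below with 8 bases on each side, the motif in capitals and the strand chosen so that it reads TGAGTCA.
Srxn1, farther site: ggagggccTGAGTCAccacgctg
Srxn1, nearer site: attcacccTGAGTCAgcggccgg
Cgref1: cctccatcTGAGTCAcagtgaca
Mt2: ccccgcgcTGAGTCAcaccccct
Klhl40: agcagcctTGAGTCAgctatggg
Emp1: tgtgtgtcTGAGTCAgagggagc
Fgl2: agaacgccTGAGTCAggcggcgg
Cd68, farther site: gttccgtgTGAGTCAgctgcctc
Cd68, nearer site: gaggtgtcTGAGTCAggtttggg
The sites of Srxn1 lie at chr2:152105422-152105428 and chr2:152105479-152105485, 102 and 45 bases before the start. That of Mt2 lies at chr8:94172539-94172545, 79 bases before the start, and that of Klhl40 at chr9:121777563-121777569, 44 bases before the start, both on the minus strand of plus-strand genes. For comparison, CACGTG, the E-box that MYC and MAX bind, was in 11.2% of the listed promoters of genes called higher and in 11.2% of those of all tested genes. TGACGTCA was in 2.96% and 3.52% of them, and the CArG box motif in 2.96% and 1.46%. Of the motifs counted, TGAGTCA had the largest excess among genes called higher. It was in 1 of 22 listed promoters of genes called lower. The windows of Fos and Ankrd1 held no TGACGTCA, TGAGTCA or CArG box.

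Among genes of energy supply the share of calls differed by list. Of 22 measured metabolic regulators 4 were higher, 1 was lower and 17 did not pass (median -0.04). The share called was 22.7%, against 3.89% of all tested genes. Ppargc1a, the coactivator that drives mitochondrial gene programmes, went from 8.89, 6.60 and 8.75 CPM to 27.2, 71.8 and 50.9 CPM, a change of 2.60 ± 0.39 (SE; adjusted p = 0.000142). Hk2, the hexokinase that traps glucose in muscle, had 206, 156 and 104 CPM without and 288, 806 and 686 CPM with contraction. Its contracted leg 1 stood closer to the uncontracted legs than to the other contracted legs, and the change was 1.91 ± 0.31 (SE; adjusted p = 0.000435). Angptl4, a secreted inhibitor of lipoprotein lipase, rose by 2.45 ± 0.47, and Nmrk2, a kinase of NAD synthesis, by 1.30 ± 0.27. Slc25a25, a calcium-dependent ATP-Mg carrier of mitochondria, was lower, at 39.4, 37.0 and 37.9 CPM in uncontracted and 24.4, 10.3 and 10.7 CPM in contracted legs (log2 change -1.38 ± 0.39, adjusted p = 0.047). Hk2 also did not pass with robust dispersions (adjusted p = 0.0663). None of the 5 passed without the libraries labelled contracted Myc 2 and 3, where the changes were 1.74, 0.89, 1.51, 0.80 and -0.64 in this order. Slc25a25 was also lost under DESeq2 and when any of 5 single libraries of the 6 was left out, and Nmrk2 without uncontracted leg 2.

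In the glycolysis list Hk2 was higher and Phkg1, the catalytic subunit of muscle phosphorylase kinase, lower (log2 change -0.68, adjusted p = 0.014), with 25 of 27 not called. In the list of fatty acid use Acot2 was the 1 of 26 that rose (0.70, adjusted p = 0.0494), and DESeq2 did not call it. The shares called in these 2 lists were 7.41% and 3.85%, against 3.89% of all tested genes. Acot2 and Phkg1 were both lost without contracted leg 2, without contracted leg 3 or without uncontracted leg 3, and without the libraries labelled contracted Myc 2 and 3 they were at 0.54 and -0.47. Nuclear subunits of oxidative phosphorylation (75 measured, median -0.10) gave no call, with 8 at an unadjusted p under 0.05 and 1 call by DESeq2. Fast fibre genes (28 measured) and slow fibre genes (10 measured) gave no call by either tool and none at an unadjusted p under 0.05.

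Growth and wasting genes gave 4 calls in each of their lists. Of 19 measured myogenic and growth control genes 4 were higher and 15 did not pass (21.05% called, median 0.42). Myod1, the myogenic determination factor, went from 1.91, 3.30 and 2.19 CPM to 17.5, 28.6 and 17.6 CPM, a change of 3.05 ± 0.37 (SE; adjusted p = 1.03e-05) that was 2.78 and still called without the libraries labelled contracted Myc 2 and 3. Runx1 rose by 3.17 ± 0.53, Met, the receptor of hepatocyte growth factor, by 1.36 ± 0.28, and Myf6, a myogenic factor of mature fibres, by 2.23 ± 0.52, and these 3 did not pass without those libraries (2.10, 1.18 and 1.03). Myf6 was also lost when any of 5 single libraries of the 6 was left out. Of 20 genes of atrophy, FoxO signalling and autophagy 4 were higher and 16 did not pass (median 0.19). Trim63, the ubiquitin ligase MuRF1 that degrades sarcomere proteins, had 152, 185 and 125 CPM without and 318, 764 and 818 CPM with contraction. The change was 2.02 ± 0.28 (SE; adjusted p = 6.5e-05), with 1.05 (adjusted p = 0.136) without those 2 libraries. Eif4ebp1, Gadd45a and Gabarapl1 had log2 changes of 0.81, 1.55 and 0.82, each lost when any of 4 single libraries of the 6 was left out, contracted legs 2 and 3 among them, and without both of these they were at 0.66, 1.01 and 0.30, not called.

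Lists of genes that MYC is best known for gave few calls or none. Of all 6676 tested genes 260 (3.89%) were called and 1066 had an unadjusted p under 0.05. Most genes were thus not called, whatever their list. Of 65 genes of rRNA processing, the nucleolus and RNA polymerase I none passed in legs labelled Myc (7 at an unadjusted p under 0.05, 0 by DESeq2), with a median of 0.03. Of 77 cytosolic ribosomal protein genes none passed (16 at an unadjusted p under 0.05, 0 by DESeq2), with a median of -0.20 and animal medians of 0.03, -0.38 and -0.27. Without the libraries labelled contracted Myc 2 and 3 the median of the rRNA processing list was 0.19. That of the ribosomal proteins changed sign to 0.11. In legs labelled control 7 of the 65 rRNA processing genes were higher, where 2.38% of all tested genes were, with a median of 0.44. The ribosomal protein median there was 0.21. Translation factors and aminoacyl-tRNA synthetases gave 1 call among 64, Eif1a (1.48 ± 0.25), and nucleotide and polyamine synthesis 2 among 25, Azin1 (2.17 ± 0.26), which protects the first enzyme of polyamine synthesis, and Uck2 (1.19 ± 0.29). Azin1 alone of these 3 passed without the libraries labelled contracted Myc 2 and 3 (1.54), and Uck2 was lost under DESeq2 and when any of 4 single libraries of the 6 was left out. MYC and its partners (9 measured) and proteasome subunits (32 measured) gave no call by either tool, with 0 and 4 genes at an unadjusted p under 0.05. Of 14 genes of ATF4 and endoplasmic reticulum stress Atf4 was the 1 that rose (0.91 ± 0.15), and it was 0.45 (adjusted p = 0.71) without those 2 libraries.

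**Figure D3:**
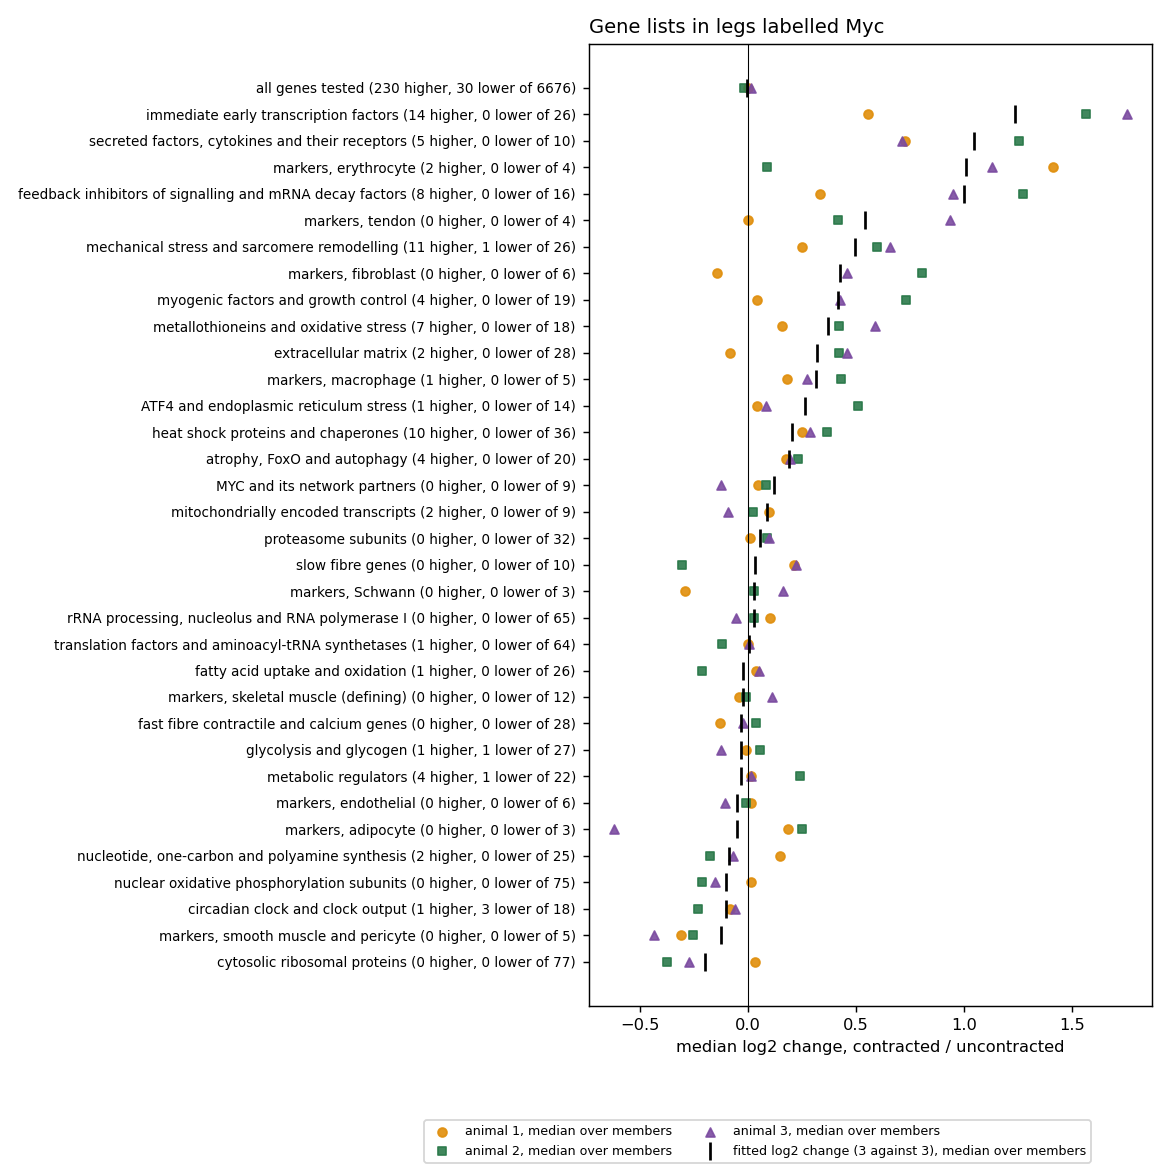
Median log2 change of the measured members of each gene list with at least 3 members, by animal (symbols) and from the fit of 3 against 3 legs (bars), with the number called higher and lower of those measured. For immediate early factors the medians were 0.56, 1.56 and 1.75 in animals 1, 2 and 3, and for all genes tested they lay near 0.

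Several calls among secreted factors, receptors and immune genes rested on few reads, though Stat3 had 383 reads in contracted and 155 in uncontracted legs. Of 10 measured members of the secreted factor list 5 were higher and 5 did not pass. Tnfrsf12a, the receptor of the cytokine TWEAK, went from 1.91, 1.32 and 1.46 CPM to 11.2, 26.2 and 25.8 CPM, a change of 3.67 ± 0.54 (SE; adjusted p = 0.000124). Stat3 rose by 1.19 ± 0.21 and Il4ra, a subunit of the interleukin 4 receptor, by 1.98 ± 0.37. Timp1, an inhibitor of extracellular proteases, rose by 2.51 ± 0.56 and was lost without contracted leg 2 or uncontracted leg 2. None of these 4 passed without the libraries labelled contracted Myc 2 and 3 (2.77, 0.66, 0.60 and 1.18).

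S100a8 and S100a9, the calcium-binding proteins that neutrophils carry in bulk, had no read in uncontracted legs and 18, 3 and 52 and 9, 3 and 29 reads in contracted legs 1, 2 and 3. The ratios were at least 23.3 and at least 13.1 against 3 pooled reads. Contracted leg 3 held most of these reads, and both calls were lost without it or without any 1 of the uncontracted legs, and also without the libraries labelled contracted Myc 2 and 3 (adjusted p of 0.0942 and 0.311) and with robust dispersions (0.287 and 0.219). The 8 neutrophil markers summed to 0 to 0.660 CPM in uncontracted and 21.7, 4.87 and 54.7 CPM in contracted legs, with Ly6g, Csf3r and Cxcr2 at 0 in all 6. The 5 erythrocyte markers, mainly haemoglobin genes, summed to 332 to 431 CPM without and 1013, 425 and 749.6 CPM with contraction, so that contracted leg 2 alone lay inside the uncontracted range. Of the 4 tested erythrocyte markers Hba-a1 (1.02) and Hba-a2 (1.06) were called. They are near-identical copies, and the call of Hba-a2 was lost without contracted leg 1 or 3 or uncontracted leg 2 or 3 and with robust dispersions (adjusted p = 0.155). Both passed without the libraries labelled contracted Myc 2 and 3 (1.43 and 1.42). In whole muscle more cells of a type and more RNA per cell cannot be told apart. The part of blood cells in other results was not tested. Macrophage markers summed to 117 to 127.5 CPM without and 121.5 to 143 CPM with contraction, and 1 of the 5 tested, Cd68 (2.32 ± 0.58), was called, which was lost when any of 5 single libraries was left out, and without the libraries labelled contracted Myc 2 and 3 (1.45).

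Of 28 measured extracellular matrix genes 2 were higher (7.14%, against 3.89% of all tested genes called) and 26 did not pass. The list medians were -0.09, 0.42 and 0.46 in animals 1, 2 and 3. Adamts4, a protease of proteoglycans, had no read in uncontracted legs and 0, 14.0 and 12.6 CPM in contracted legs, so that contracted leg 1 overlapped the uncontracted legs and the pooled ratio was at least 13.7. The collagen crosslinking enzyme gene Lox showed the same order, with 17.8, 15.2 and 10.2 CPM without and 17.5, 41.4 and 46.5 CPM with contraction (log2 change 1.26 ± 0.32, adjusted p = 0.0282). Both calls were lost without contracted leg 2, and that of Lox also without contracted leg 3, without both (0.26), or without uncontracted leg 2 or 3. With both left out Adamts4 had no read in any of the other 4 legs. The 7 fibroblast markers summed to 661 to 725 CPM in uncontracted legs and to 661, 1355 and 1211 CPM in contracted legs. Contracted leg 1 thus lay inside the uncontracted range. The sums are mostly reads of Col1a1, Dcn and Col1a2. None of the 6 tested fibroblast markers was called, and their fitted log2 changes ran from -0.42 to 0.93. Lum had 12.7, 7.925 and 12.4 CPM without and 10.5, 6.69 and 8.175 CPM with contraction. Endothelial markers summed to 145 to 192 CPM and 155 to 168.5 CPM, and tendon markers to 203 to 254 CPM and 226 to 307 CPM. Whether connective tissue in legs 2 and 3 bears on the matrix genes was not tested.

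Fewer genes fell, and 6 of the 30 kept their call with each of the 6 libraries left out in turn. Inmt (chr6:55170626-55175043) encodes an enzyme that methylates indole amines. It measured 37.5, 46.9 and 35.0 CPM without and 5.59, 6.69 and 3.77 CPM with contraction, a log2 change of -2.90 ± 0.29 (SE; adjusted p = 9.4e-07). All 3 contracted legs lay well below the uncontracted legs, and unlike in most of the genes that rose, contracted leg 1 lay between the other contracted legs. Odf3l2, related to a sperm tail protein, followed with 69.2, 118 and 87.5 CPM and 14.0, 17.6 and 19.5 CPM and a change of -2.44 ± 0.34 (SE; adjusted p = 5.89e-05). Inmt and Odf3l2 also passed without the libraries labelled contracted Myc 2 and 3 (-2.82 and -2.71). Lrrc30, a leucine-rich repeat gene, was the most abundant of the 6, at 506, 709 and 421 CPM without and 323, 195 and 196 CPM with contraction (log2 change -1.22 ± 0.19, adjusted p = 0.000267). Ankrd9 fell by 0.86 and Wbp1l by 0.82 on the log2 scale, with adjusted p of 0.000689 and 0.00285. Dbp (chr7:45705088-45710203), the remaining one, is a clock output factor that went from 54.0, 73.3 and 68.5 CPM to 25.8, 26.2 and 31.4 CPM (log2 change -1.25 ± 0.22, adjusted p = 0.00084). Without the libraries labelled contracted Myc 2 and 3 Dbp was at -1.34, Lrrc30 at -0.75, Ankrd9 at -0.84 and Wbp1l at -0.83, none of them called.

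Of 18 measured clock genes 3 were lower, 1 was higher and 14 did not pass (22.22% called, median -0.10). With Dbp, Per3 (-0.98) and Nr1d2 (-0.54) were lower, and the repressor gene Bhlhe41 rose by 1.21 ± 0.24 from 12.7, 12.6 and 12.4 to 20.2, 35.9 and 32.1 CPM. Per3 and Nr1d2 were lost under DESeq2 and without either contracted leg 2 or contracted leg 3, and with the animal as a block over the 6 libraries alone (adjusted p of 0.0671 and 0.126). Over 12 libraries the block ended the call of Nr1d2 (adjusted p = 0.073) and kept that of Per3. Without the libraries labelled contracted Myc 2 and 3 Per3, Nr1d2 and Bhlhe41 were at -0.62, -0.57 and 0.68, none of them called. Among the other genes that fell furthest, Ankzf1 (-1.80), Plekhh3 (-1.57), Zfp503 (-1.35), Sgk1 (-1.01) and Mylk4 (-0.87) were each lost in at least 1 fit that left out a library and without the libraries labelled contracted Myc 2 and 3 (-1.54, -1.69, -0.75, -0.41 and -0.84). Sgk1, a kinase that regulates ion channels, was the one of them lost without contracted leg 3 alone, and its levels were 64.2, 74.6 and 71.4 CPM without and 53.1, 32.9 and 20.8 CPM with contraction. Plekhh3 (adjusted p = 0.0649), H2afz (0.0917) and Faap100 (0.0594) did not pass with the animal as a block.

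The response was then set beside that of legs labelled control, which compares other libraries. Both came from the same fit, with a shared filter, scaling and spread of each gene, so their calls are not independent tests. In legs labelled control 187 genes passed (2.80%), 159 higher (2.38%) and 28 lower (0.419%). Read in legs labelled Myc, 156 of the 159 genes higher in controls went up, with a median log2 change of 1.57 against 1.64 in controls, and 127 were called higher in both, which is 79.9% of the control list and 55.2% of the Myc list. The 3 contracted legs labelled Myc lay above the 3 uncontracted legs for 140 of the 159 (88.1%), where 734 (11.0%) of all tested genes did so and 503 (7.53%) lay below. In animals 1, 2 and 3 the medians of these 159 genes were 0.90, 1.67 and 1.64, and contracted leg 1 was the lowest contracted leg for 138 of them. By the labels, this order by animal comes from genes chosen in other animals. That would not hold if contracted libraries 2 and 3 had been exchanged between labels. Of the 28 genes lower in controls 27 went down in legs labelled Myc, with a median of -0.50 against -0.90, and 7 were called in both (25% of the control list and 23.3% of the Myc list).

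No gene passed for a difference between the responses (0%), by edgeR or by DESeq2. An unadjusted p under 0.05 was reached by 331 genes (4.96%), about the share expected if no gene differed. The 103 genes called higher with the Myc label alone had a median log2 change of 1.25 in legs labelled Myc and 0.59 in legs labelled control, and 96 of them went up in both. For the 260 called genes the smallest adjusted p of the difference was 0.855, so being called under one label does not show that the responses differed. Timm10, a chaperone of mitochondrial protein import, had the smallest p of the difference (4.12e-05, adjusted p = 0.275). It had 48.3, 54.8 and 40.1 CPM without and 39.1, 23.1 and 25.8 CPM with contraction in legs labelled Myc, a change of -0.74 ± 0.22 that was not called, and a change of 0.95 ± 0.24 in legs labelled control. The nucleolar protein gene Ncl (-0.20 with the Myc label and 0.71 with the control label), the nucleoside diphosphate kinase gene Nme1 (-0.38 and 0.68) and the ribosomal protein gene Rpl27 (-0.37 and 0.45) were also among the 10 smallest. Dusp1, a phosphatase that switches off MAP kinases, called with the Myc label but not without uncontracted leg 2 or without both contracted legs 2 and 3, was 1.28 with the Myc label and -0.01 with the control label, and Acot2 was 0.70 and -0.29. Psme1 (0.60 and -0.27), Frzb (0.45 and -1.74), the immunoglobulin gene Igkc (3.18 and -3.47) and mt-Tp (1.59 and 0.17) completed them, with an adjusted p of 0.855 for each of the 9. Single legs carried both values of Igkc, which had 2.54, 1.32 and 0.729 CPM without and 6.29, 26.2 and 11.9 CPM with contraction in legs labelled Myc (2.46 without contracted leg 2), and 1.22, 42.6 and 0.651 CPM in uncontracted legs labelled control. Contracted legs 2 and 3 held 0 and 2 Myc reads with the Myc label and 10 and 59 with the control label. A split by label is therefore not a split by measured Myc.

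**Figure D4:**
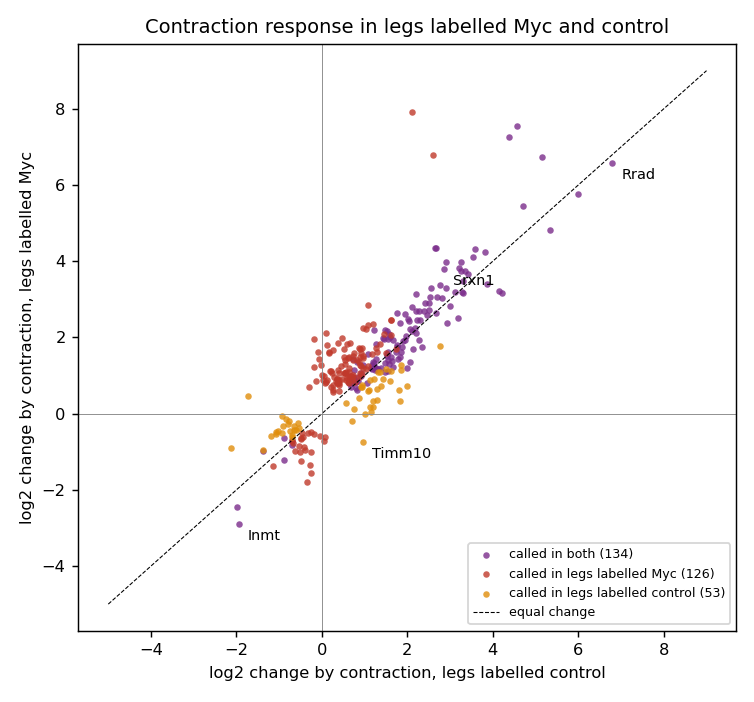
Log2 change by contraction in legs labelled control (horizontal) and labelled Myc (vertical) for genes called in either comparison, 134 in both, 126 with the Myc label alone and 53 with the control label alone; the dashed line marks equal change. Most points lie in the upper right or lower left of the plot, and Timm10, at -0.74 with the Myc and 0.95 with the control label, has the smallest p for a difference; fitted values of genes with no read in uncontracted legs are no measure of size.

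Mitochondrially encoded RNAs did not move as one class, and they were examined after their values were seen. The table lists 22 mitochondrial tRNA genes, of which 6 were tested and 5 were called higher, both rRNA genes were called higher, and none of 7 tested mitochondrial mRNA genes was called (median -0.02). Summed over the 22 genes, tRNA reads were 299.8, 302.5 and 211 CPM in uncontracted and 536, 1093 and 853 CPM in contracted legs labelled Myc. All contracted legs were above all uncontracted legs, with contracted leg 1 the lowest. rRNA summed to 3879, 2986 and 2484 CPM without and 4026, 8771 and 6925 CPM with contraction, so contracted leg 1 was barely above uncontracted leg 1. Among single tRNAs mt-Tp (chrM:15356-15422, minus strand) went from 194, 228 and 159 CPM to 383, 792 and 598 CPM, by 1.59 ± 0.28 (SE; adjusted p = 0.000984). The tRNAs mt-Tl1 and mt-Tm rose by 1.99 ± 0.34 and 1.70 ± 0.29, and these 3 kept their call with each library left out in turn, while mt-Ta (1.61), mt-Tv (1.43), mt-Rnr1 (0.95) and mt-Rnr2 (1.09) were lost without contracted leg 2. Further single libraries ended the calls of mt-Ta and mt-Rnr2 (uncontracted leg 2 or 3) and of mt-Tv (contracted leg 3 or uncontracted leg 3), and mt-Ta was at 2.20 without uncontracted leg 1. Robust dispersions ended the calls of mt-Tp, mt-Rnr1 and mt-Rnr2 (adjusted p of 0.0831, 0.0619 and 0.154), and DESeq2 that of mt-Rnr2. With the animal as a block mt-Ta had an adjusted p of 0.0558. Without the libraries labelled contracted Myc 2 and 3 none of the 7 passed, and the tRNA median was 1.01 in place of 1.6. In legs labelled control the tRNA sums were 436, 421 and 374 CPM without and 377, 291 and 807 CPM with contraction, the groups overlapped and 0 of the 6 tRNAs was called. The share of reads of all mitochondrial genes was 32.1, 29.4 and 35.2% in uncontracted and 34.1, 28.2 and 27.5% in contracted legs labelled Myc. Mitochondrial genes lie end to end, so that without a stated strand setting reads of neighbours cannot be told apart, and mature tRNA lacks the poly(A) tail that the kit's primer binds.

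**Figure D5:**
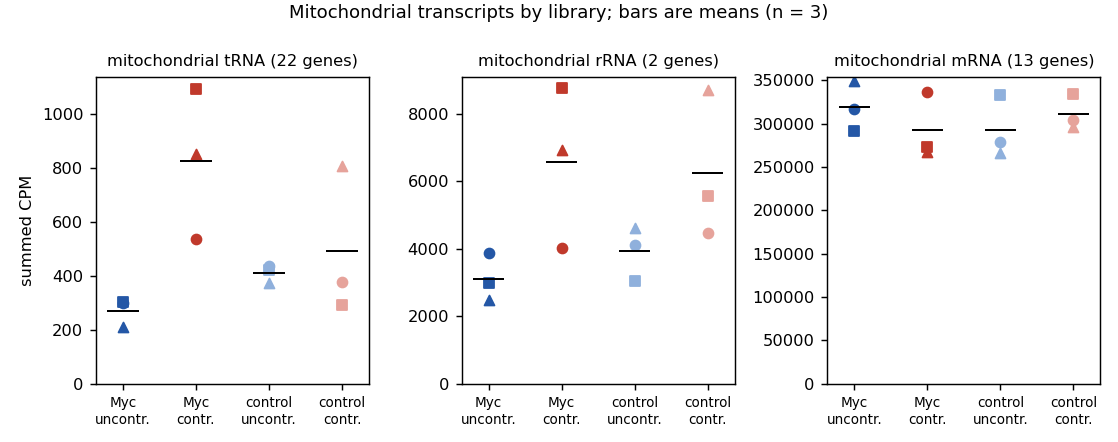
Summed CPM of 22 tRNA, 2 rRNA and 13 mRNA genes of the mitochondrial genome in each of the 12 libraries, by group, with animals marked by shape and means (n = 3) as bars. tRNA in the contracted legs labelled Myc (536 to 1093 CPM) lies above their uncontracted legs (211 to 302.5 CPM), and mRNA overlaps between groups.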

How the data were processed

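RNA of gastrocnemius muscle from both legs of 6 mice gave 12 libraries in 4 groups of 3, grouped by title. Libraries were prepared from Trizol-extracted RNA with a QuantSeq 3' kit, per the labels' protocols. The authors deposited 1 table of whole read counts for 47643 gene identifiers, not normalized. FastQC 0.11.5, STAR 2.5.2a, SAMtools, HTSeq 0.6.0 and the mm10 build are named in the submitters' processing notes, without roles. Annotation release, strand setting and filters are not given in the sources used here. Symbols were matched for 47224 identifiers, and the 419 without one held no more than 0.0128% of the reads of any library. Coordinates are from GENCODE for GRCm38, and promoters from RefSeq (GRCm38.p6).

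The main test was the 2-sided quasi-likelihood F test of edgeR 4.0.16 (R 4.3.3) on 12 libraries with 4 group means. Library sizes were scaled by TMM, low genes were removed by filterByExpr at 10 counts, and p-values were adjusted by Benjamini-Hochberg over 6676 genes, with a threshold of 0.05. The SE of a log2 change is its size divided by the square root of F. CPM divides by library totals, and changes within animals use log2 CPM with a prior count of 2. Ratios of pooled reads have exact 95% intervals. Replicates are separate animals by their numbers, 3 a group. Replicates differed by more than counting noise (chi-square per degree of freedom 2.56 to 10.1).

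Per the titles, equal numbers mark the legs of 1 animal, which pairs the samples. Deviations of such legs from their group means correlated at -0.122 to 0.112.

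The comparison, members and 36 gene lists were chosen with earlier results of these data known. Named genes were Myc, the 15 highest and 15 lowest called changes with separate groups and a mean of at least 5 CPM, up to 4 members of each list by p, and the 10 smallest p-values of the difference between labels. Further names were chosen after values were seen. Results of a further called gene are not reported here.

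The steps were tested on simulated counts of 6676 genes for the contraction comparison labelled Myc, where 17.9% of 1.5-fold, 41.8% of 2-fold and 92.4% of 4-fold changes were recovered with 8 false calls. Alternatives were other scalings, filters, dispersions and thresholds, DESeq2 1.42.0, the 6 libraries alone and the animal block. Further fits left out single libraries, or the contracted libraries numbered 2 and 3 of the Myc label or of both labels.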

Additional observations from a re-analysis of the deposited data

How the results depend on the processing

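In legs labelled Myc 260 genes were called. The count was 148 at an adjusted p under 0.01, 433 with no low-count filter (17871 genes tested), 46 without the contracted libraries labelled Myc 2 and 3, and 59 without the 4 contracted libraries numbered 2 and 3. With 1 library left out it ranged from 147 (without contracted Myc 3) to 517 (without contracted Myc 1), and it was 151 without uncontracted Myc 2, 173 without uncontracted Myc 3 and 152 without contracted Myc 2. It stayed within 1.5 times of 260 with RLE scaling (260), library totals alone (231), DESeq2 (213), a stricter filter (238), robust dispersions (252) and the 6 libraries alone (240). With the animal as a replicate block it was 228 over 12 libraries and 205 over the 6 alone, and over the 6 alone it also ended the calls of Ankzf1, Zfp503, Lox, Synpo, Eif4ebp1 and Per3 (adjusted p of 0.0551 to 0.0671), which kept them over 12. It changed no other call of a gene named in the text than those given there. Robust dispersions ended 13 calls of genes named in the text, among them those of Abra, Csrp3, Slc25a25, Gabarapl1, Acot2 and H2afz (adjusted p of 0.0542 to 0.196) beside those given, and DESeq2 13, among them those of Fosl2, Cebpb, Eif4ebp1, Ankzf1, Plekhh3, Zfp503 and H2afz (0.0545 to 0.239). Library totals alone ended 9 and the 6 libraries alone 6. In legs labelled control 187 genes became 305 with no filter, 67 without the 4 libraries, and 116 to 313 with 1 library left out, the extremes being without contracted control 3 and 1. For the difference between labels 0 became 18 with no filter and 0 to 4 with 1 library left out, with 1 gene each without contracted control 1 and 3 and 4 without contracted Myc 1. The cause of these shifts was not tested, beyond fewer samples or more genes in a fit. The log2 change of Myc changed sign to -0.066 and -0.088 under the block (12 and 6 libraries) and ranged from -3.26 (without contracted Myc 1) to 0.774 (without contracted Myc 2) with 1 library left out. Those of Ncl became 0.091 and 0.089 and of Nme1 0.005 and 0.003 without the 4 and without the 2 libraries. At a median of 1526524 reads a library, most of the 1.5-fold and of the 2-fold changes were missed in the simulated counts.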

Other observations

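Further genes with large changes in legs labelled Myc lay outside the gene lists and were picked after their values were seen. Midn, which encodes the nuclear protein midnolin, went from 57.8, 91.1 and 83.8 CPM in uncontracted legs 1, 2 and 3 to 327, 770.4 and 863 CPM in contracted legs, a log2 change of 3.04 ± 0.27 (SE; adjusted p = 2.16e-07). Tuba1c, an alpha-tubulin gene with close relatives, had 19.1, 27.7 and 29.2 CPM without and 102, 246 and 228 CPM with contraction (log2 change 2.90 ± 0.26, adjusted p = 2.4e-07). In both genes the groups were apart and contracted leg 1 was the lowest contracted leg. The transcription factor gene Sox9, known from cartilage and tendon, measured 3.18, 3.30 and 9.48 CPM and 30.7, 96.2 and 87.4 CPM and rose by 3.75 ± 0.40, or 4.45 without uncontracted leg 3, which held most of its uncontracted reads. Thbd, the thrombin receptor of vessel walls, rose by 3.37 ± 0.31 from 4.45, 9.25 and 6.56 to 41.9, 86.4 and 85.5 CPM. Klf5 rose by 2.59 ± 0.25, the membrane glycoprotein gene Pdpn by 2.63 ± 0.31, the deubiquitinase gene Otud1 by 3.73 ± 0.42 and the acute phase gene Serpina3n by 3.16 ± 0.38. Rcan1, an inhibitor of the calcium-dependent phosphatase calcineurin, rose from 73.7, 85.2 and 101 to 219, 451 and 360.3 CPM (log2 change 1.96 ± 0.24, adjusted p = 1.26e-05). Agt, the precursor of angiotensin, rose by 2.18 ± 0.29. These 10 genes kept their call with each library left out in turn and without the libraries labelled contracted Myc 2 and 3, where their log2 changes were 2.07, 2.01, 2.54, 2.62, 1.94, 1.94, 2.69, 2.23, 1.33 and 1.67 in the order named. Arid5b, a chromatin factor gene, rose by 3.49 ± 0.47 and was not called without those libraries (2.10, adjusted p = 0.0853).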
